A study of Mus musculus with 21 samples.

Results

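The mitochondrially encoded complex I genes are the 7 subunits of NADH:ubiquinone oxidoreductase that are written in mitochondrial DNA: mt-Nd1, mt-Nd2, mt-Nd3, mt-Nd4, mt-Nd4l, mt-Nd5 and mt-Nd6. They were taken by name, through the Ensembl identifiers of the count table, and no measured value entered the rule. Earlier results of these data were known when the 7 were chosen. All 7 were found among the 22136 genes of the table, and all 7 were among the 12626 genes that passed a filter on low counts and were tested. The filter kept none of them through 1 group alone, since the lowest count of any member in any library was 389.

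Complex I is the entry point of electrons from NADH into the respiratory chain. Its matrix arm carries the flavin and the iron-sulfur clusters and is made of nuclear-encoded proteins, whereas the proteins from mitochondrial DNA form the core of its membrane arm, which moves protons across the inner membrane. Heart muscle is rich in mitochondria, and the transcripts of mitochondrial DNA are made as long precursors from both strands that are then processed into single mRNAs.

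The study profiled RNA of left ventricular tissue from wild-type C57BL/6J male mice, which entered the experiments at 8 weeks of age. Mice underwent transverse aortic constriction (TAC), which narrows the aorta and loads the left ventricle with pressure, or a sham operation, and received Sema (semaglutide, an agonist of the GLP-1 receptor) or vehicle by daily intraperitoneal injection. The series holds 21 libraries in 6 groups: the Sham group has 6 libraries, and 3 libraries each are of Sham + Sema 4W, of TAC 8W, of Sham + Sema, of the 8 weeks of drug in TAC (TAC 8W + Sema 8W) and of the 4 weeks of drug in TAC (TAC 8W + Sema 4W). TAC 8W stands for 8 weeks of constriction, Sema 8W for 8 weeks of drug and Sema 4W for 4 weeks of drug begun 4 weeks after surgery. Sham and TAC 8W received vehicle, and no group carried a transgene or a deletion. The titles of the Sham + Sema group give no duration. The series text gives the daily dose as 60 mg per kg and the study's methods in µg, a difference that the sources do not settle.

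The libraries were read as 2 sets, after how the titles number the shams. The first set held 12 libraries, Sham 1 to 3, Sham + Sema, TAC 8W and TAC 8W + Sema 8W. The second held 9 libraries, Sham 4 to 6, TAC 8W + Sema 4W and Sham + Sema 4W. No label states a set, and the count columns of the second set carry an M that no source explains. Treated groups were therefore compared only inside their set, and the difference between the sets was measured over vehicle shams, where it cannot be told apart from whatever else differed between the sets. The sources do not say that each library came from a separate mouse, so p-values measure the spread between libraries, which may be technical.

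Total counts were 8897837 to 17170139 per library (median 12933772). The labels name cardiomyocytes, but markers of other cells were measured too: 10 of 10 fibroblast, 10 of 10 endothelial and 10 of 10 macrophage markers passed the filter, against 1 of 5 for adipocytes (Lep was at 0 in every library) and 2 of 5 for B and T cells. In bulk tissue, fewer cells of a type and less RNA per cell cannot be told apart. A few libraries stood apart from their group. TAC 8W + Sema 4W replicate 3 correlated with its replicates 1 and 2 at r = 0.884 and 0.883 over genes, while those 2 correlated at 0.973. In Sham + Sema, replicate 3 differed in how its counts related to transcript length (rho -0.411 across genes, against 0.174 and 0.268 in the other 2). TAC 8W replicate 2 also differed in this from its group (rho 0.0372, against 0.460 and 0.361). Sham + Sema 4W replicate 3 correlated with its replicates 1 and 2 at r = 0.926 and 0.918, while those 2 correlated at 0.949. For the comparisons that hold these libraries, the median of the members is given with and without them.

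The 7 genes lie on mouse mitochondrial DNA (MT, build mm10, that is GRCm38; positions from GENCODE M21). mt-Nd1, which forms the junction with the matrix arm and much of the ubiquinone channel, spans MT:2751-3707 on the plus strand. mt-Nd2, mt-Nd4 and mt-Nd5, the large antiporter-like subunits of the membrane arm, span MT:3914-4951, MT:10167-11544 and MT:11742-13565 on the same strand. mt-Nd3, mt-Nd4l and mt-Nd6, the small subunits that connect mt-Nd1 with the antiporter-like subunits, span MT:9459-9806, MT:9877-10173 and MT:13552-14070. Only mt-Nd6 is on the minus strand, and 43.7% of its bases are T and 5.97% are C. Each gene is a single exon, with a length of 297 bases (mt-Nd4l) to 1824 bases (mt-Nd5) and a GC content of 33.0% (mt-Nd3) to 41.1% (mt-Nd4l).

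Some members share bases with each other. mt-Nd4l and mt-Nd4 overlap by 7 bases in the same direction, and mt-Nd5 and mt-Nd6 overlap by 14 bases in opposite directions. The stretches at both overlaps are shown 5′ to 3′ on the strand of each gene, with the shared bases in capitals (MT:10114-10173 and MT:10167-10226 on the plus strand, MT:13506-13565 on the plus strand and MT:13552-13611 on the minus strand).
mt-Nd4l, last 60 bases: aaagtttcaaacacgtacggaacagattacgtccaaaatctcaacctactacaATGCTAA
mt-Nd4, first 60 bases: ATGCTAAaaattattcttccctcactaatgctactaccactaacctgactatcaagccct
mt-Nd5, last 60 bases: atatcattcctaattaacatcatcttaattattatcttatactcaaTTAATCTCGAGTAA
mt-Nd6, last 60 bases: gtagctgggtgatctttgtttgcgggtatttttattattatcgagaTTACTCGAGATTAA
mt-Nd4l and mt-Nd4 are carried by 1 shared mRNA, so a read across the first overlap belongs to both. The sources used here do not give the strand setting of the counting, and without strand, reads of mt-Nd6 and of RNA from the opposite strand at its place cannot be told apart.

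Several members also have near-identical copies in nuclear DNA. Of the 50-base windows of each gene, 98.8% of mt-Nd4l, 98.0% of mt-Nd3 and 62.2% of mt-Nd4 occur in annotated nuclear transcripts, against 8.19% of mt-Nd2, 7.61% of mt-Nd5 and 0.0% of mt-Nd1 and mt-Nd6. The copies of mt-Nd3, mt-Nd4l and mt-Nd4 stand side by side on the minus strand of chromosome 1. Gm28438 (chr1:24612775-24613119) differs from mt-Nd3 at 1 of 345 bases. Gm10222 (chr1:24612407-24612700) and Gm28439 (chr1:24611535-24612410) match mt-Nd4l and mt-Nd4 over 294 and 876 bases with 0 mismatches. The start of mt-Nd3 and of its copy are shown because they differ only at the capital letter, T3C counted from the first base of mt-Nd3 (MT:9459-9518, plus strand, and chr1:24613060-24613119, minus strand).
mt-Nd3, bases 1 to 60: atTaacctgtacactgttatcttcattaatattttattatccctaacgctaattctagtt
Gm28438, matching bases: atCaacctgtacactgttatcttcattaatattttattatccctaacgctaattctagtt
None of these copies is a row of the count table, and the sources do not say how reads that fit several places were counted. The values of mt-Nd3, mt-Nd4l and mt-Nd4 are uncertain to that extent, and the part of the copies in them was not tested.

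Levels are given in CPM, counts per 1000000 counts of a library after its size was scaled by TMM, and divided by gene length where genes are compared. Per kb, mt-Nd1 was the highest member in 20 of 21 libraries and mt-Nd2 was second in 18. mt-Nd4l was the lowest in 19 and mt-Nd3 in the other 2. In the first set the medians over libraries were 22045 CPM per kb for mt-Nd1, 12438 for mt-Nd2, 6951 for mt-Nd6, 5389 for mt-Nd4, 4646 for mt-Nd5, 831 for mt-Nd3 and 249 for mt-Nd4l. The ranges of neighbours in this order overlapped, as did those of mt-Nd3 (226 to 4462 CPM per kb) and mt-Nd4l (66.1 to 398). In the second set mt-Nd4 passed mt-Nd6, with medians of 51179 and 43434 CPM per kb: mt-Nd6 was above mt-Nd4 in 11 of 12 libraries of the first set and in 2 of 9 of the second.

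**Figure D1:**
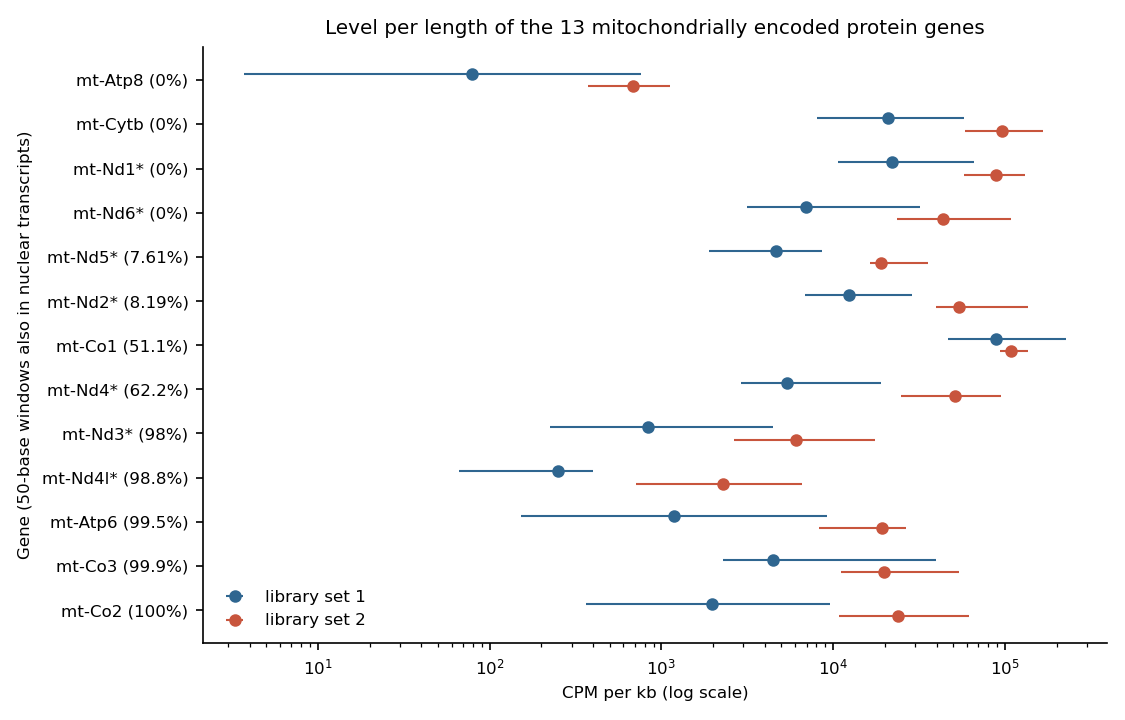
CPM per kb (log scale) of the 13 mitochondrially encoded protein genes, with points at the median and bars from the lowest to the highest library of the first set (12 libraries, blue) and the second set (9 libraries, red); stars mark the complex I genes and the percentage is the share of 50-base windows also found in nuclear transcripts. mt-Nd4l (98.8%) and mt-Nd3 (98.0%) were the lowest complex I genes, and mt-Nd1 (0.0%) the highest, in both sets.

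The members did not vary alike inside groups. The fold between the highest and the lowest of 3 libraries had a median over groups of 1.54 for mt-Nd6, 1.57 for mt-Nd1, 1.61 for mt-Nd4, 1.62 for mt-Nd5 and 1.65 for mt-Nd2, against 2.39 for mt-Nd4l and 4.26 for mt-Nd3. The widest spread was that of mt-Nd4l in Sham 4 to 6, at 211, 1768 and 1087 CPM, which is 8.39-fold between the lowest and the highest library.

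**Figure D2:**
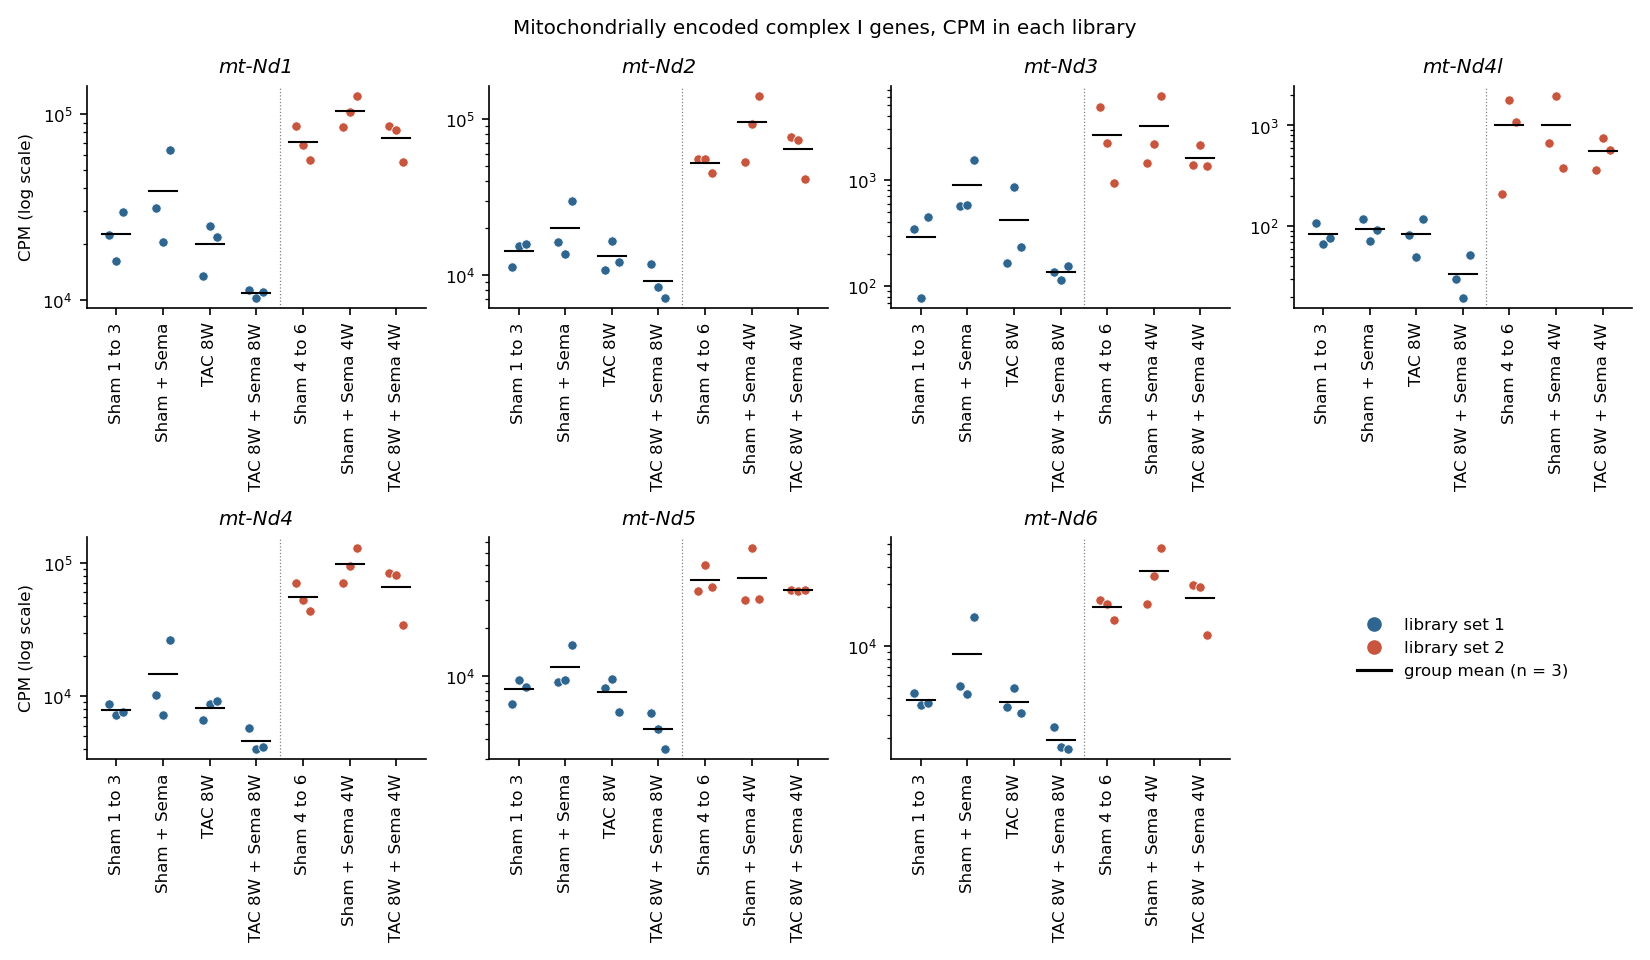
CPM of each complex I gene in each of the 21 libraries (log scale), by group, with the mean of the 3 libraries as a bar; the first set is blue and the second red. mt-Nd1 ranged over 10237 to 63703 CPM in the first set and 55063 to 124954 in the second, and mt-Nd3 and mt-Nd4l show the widest spread inside groups.

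TAC 8W was first compared with Sham 1 to 3, which asks whether pressure overload by itself goes with other transcript levels of complex I. No difference of a member was larger than the spread between libraries. In all, 0 of 7 passed an adjusted p of 0.05 in edgeR's quasi-likelihood test, against 2.22% of all genes, 0 had an unadjusted p under 0.05, and DESeq2 and limma-voom called 0 as well. mt-Nd1 measured 22174, 16134 and 29467 CPM in Sham 1 to 3 and 13373, 24856 and 21788 in TAC 8W. The groups overlapped, and the log2 fold change was -0.18 (SE 0.39, adjusted p = 0.949). mt-Nd5, the most distal antiporter-like subunit, measured 6672, 9483 and 8546 CPM in Sham 1 to 3 and 8402, 9571 and 5910 in TAC 8W, with a log2 fold change of -0.05 (SE 0.35, adjusted p = 0.987). Log2 fold changes of the 7 genes ran from -0.18 to 0.51 with a median of -0.04, near that of all genes (0.08), and no member had groups without overlap, against 11.6% of all genes higher and 8.74% lower in TAC 8W. The largest estimate, 0.51 for mt-Nd3, came with an SE of 0.68, since its values were 344, 78.5 and 453 CPM in Sham 1 to 3 and 166, 850 and 234 in TAC 8W. Without TAC 8W replicate 2 the median of the 7 was -0.25. Of the 10 fibroblast markers, 4 were higher in TAC 8W (Postn, by 4.78 on the log2 scale, Col1a1, by 2.33, Col1a2 and Col3a1), while no member was called beside them.

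The comparison of TAC 8W + Sema 8W with TAC 8W asks what 8 weeks of drug added under pressure overload. All 7 genes had estimates below 0, from -1.62 to -0.53 on the log2 scale (median -0.88, all genes -0.12), and they stayed below 0 with RLE factors, total counts, nuclear genes alone or the 13 mitochondrial genes for scaling. The median of the 7 was -0.69 without TAC 8W replicate 2. None passed the threshold, however: 0 of 7 had an adjusted p under 0.05 against 5.66% of all genes, 5 of 7 had an unadjusted p under 0.05, and DESeq2 and limma-voom called 0. Together the 7 genes took 6.85% ± 0.116 (SD, n = 3) of all counts in TAC 8W and 3.95% ± 0.501 in TAC 8W + Sema 8W, a share that was lower in each treated library (4.45%, 3.96% and 3.44%) than in any TAC 8W library (6.77%, 6.80% and 6.98%).

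mt-Nd1 measured 13373, 24856 and 21788 CPM in TAC 8W and 11318, 10237 and 11008 in TAC 8W + Sema 8W. The 3 treated libraries lay close together and below all 3 of TAC 8W, and the log2 fold change was -0.88 (SE 0.39, adjusted p = 0.208). With total counts in place of TMM the same difference passed the threshold (log2 fold change -0.88, SE 0.19, adjusted p = 0.0172, beside 3.64% of all genes), and likewise after scaling to the 13 mitochondrial genes (-0.66, SE 0.14, adjusted p = 0.0372, beside 0.8%).

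Among the small connecting subunits, mt-Nd6 measured 3422, 4772 and 3098 CPM in TAC 8W and 2409, 1704 and 1644 with Sema 8W (log2 fold change -0.97, SE 0.46, adjusted p = 0.244). mt-Nd3, whose matrix loop shifts between the active and the resting enzyme, measured 166, 850 and 234 CPM against 137, 114 and 155 (log2 fold change -1.62, SE 0.70, adjusted p = 0.193). Both genes were lower in every treated library, although TAC 8W replicate 2 alone sets most of the mean of mt-Nd3. mt-Nd4l measured 82.7, 49.5 and 118 CPM against 30.2, 19.6 and 51.5, and here the groups overlapped in 1 library each (log2 fold change -1.31, SE 0.60, adjusted p = 0.229).

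Of the antiporter-like subunits, mt-Nd4 measured 6662, 8815 and 9144 CPM in TAC 8W and 5740, 4015 and 4160 with Sema 8W (log2 fold change -0.82, SE 0.43, adjusted p = 0.301). mt-Nd5 measured 8402, 9571 and 5910 CPM against 5820, 4644 and 3448 (log2 fold change -0.78, SE 0.35, adjusted p = 0.211). Both were lower in every treated library, mt-Nd5 by a narrow margin. mt-Nd2 measured 10744, 16469 and 12134 CPM against 11771, 8362 and 7126, with overlapping groups and a log2 fold change of -0.53 (SE 0.39, adjusted p = 0.492). In all, 5 of 7 members (mt-Nd1, mt-Nd3, mt-Nd4, mt-Nd5 and mt-Nd6) had no overlap between the groups, against 18.9% of all genes in that direction, and the same 5 had none as a share of the mitochondrial counts.

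The GC content of genes moved with this comparison. The correlation across genes of a library's deviation with GC content was -0.175 to -0.0800 in the TAC 8W libraries and 0.201 to 0.563 in those of TAC 8W + Sema 8W, and the members are poor in GC: 8.48% of nuclear genes had a GC content no higher than the highest of the members. Once the trends of the libraries with GC content and transcript length had been removed, an alternative chosen after seeing the data, the median of the 7 estimates was -0.09 in place of -0.88, and 3 of 7 were above 0. That trend is fitted on 12604 nuclear genes, of which 79 had both a GC content and a length no higher than the highest of the members. The fibroblast markers differed too, with 4 of 10 lower with Sema 8W (Postn, Col1a1, Col1a2 and Col3a1; summed over the list, 1478 to 4172 CPM in TAC 8W and 1804 to 2119 with Sema 8W), as did Rgs5, 1 of 8 markers of smooth muscle and pericytes, and Ttn, 1 of 10 of cardiomyocytes. The part of cell types in the members' values was not tested.

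**Figure D3:**
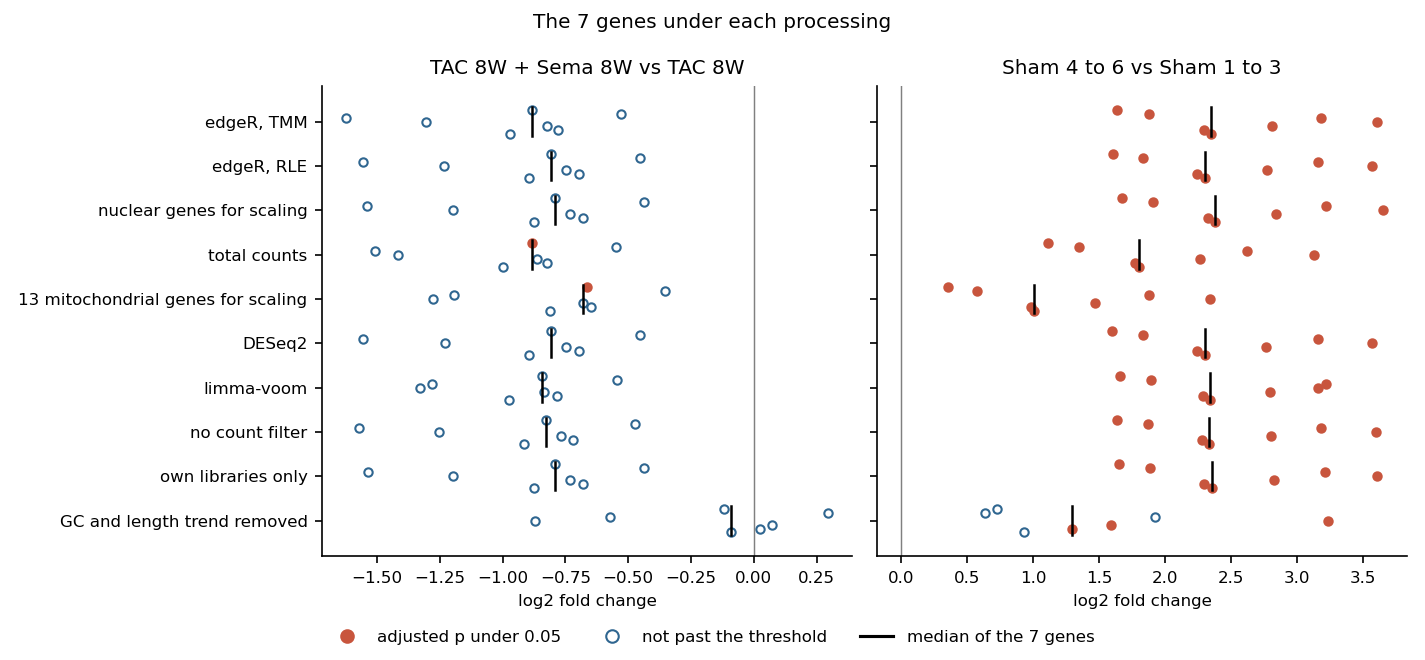
Log2 fold change of each of the 7 complex I genes under each processing, for TAC 8W + Sema 8W against TAC 8W (left) and Sham 4 to 6 against Sham 1 to 3 (right); filled points passed an adjusted p of 0.05, open points did not, and black lines mark the median of the 7. On the left the median is -0.88 with TMM scaling and -0.09 once the trend with GC content and length is removed, and on the right the medians are 2.35 and 1.29.

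Against Sham 1 to 3, TAC 8W + Sema 8W also had all 7 estimates below 0, from -1.31 to -0.64 (median -1.02, all genes -0.07). None passed the threshold (0 of 7, against 3.36% of all genes, with 4 of 7 at an unadjusted p under 0.05), and the adjusted p-values were 0.150 to 0.423. limma-voom called 0 and DESeq2 called mt-Nd1 alone (log2 fold change -1.05, SE 0.35, adjusted p = 0.0419), beside 6.37% of the genes it gave an adjusted p. mt-Nd1 also passed with total counts (-1.07, adjusted p = 0.0105, beside 1.55% of all genes) and with scaling to the 13 mitochondrial genes (-0.68, adjusted p = 0.0248, beside 1.64%). Groups did not overlap for 5 of 7 members (mt-Nd1, mt-Nd4l, mt-Nd4, mt-Nd5 and mt-Nd6), against 19.0% of all genes, and as a share of the mitochondrial counts for mt-Nd1 and mt-Nd6 only. mt-Nd1 had a mean of 22592 CPM ± 6677 (SD, n = 3) in Sham 1 to 3 and 10854 ± 556 in TAC 8W + Sema 8W (log2 fold change -1.06, SE 0.39, adjusted p = 0.150). With the trend in GC content and length removed, the median of the 7 was -0.22 and 1 estimate was above 0. This comparison and the preceding one share the TAC 8W + Sema 8W libraries.

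In sham-operated mice the estimates lay on the other side of 0. All 7 estimates of Sham + Sema against Sham 1 to 3 were above 0, from 0.17 to 1.62 (median 0.77, all genes -0.01), but 5 of 7 turned below 0 when the libraries were scaled to the 13 mitochondrial genes and 2 of 7 with total counts. No member passed the threshold, and no gene of all those tested did (0.0%, with 456 genes at an unadjusted p under 0.05, 2 of them members). DESeq2 called 0 members and 3 genes in all, and limma-voom 0 of each. One library set most of these estimates. mt-Nd6 measured 4433, 3534 and 3681 CPM in Sham 1 to 3 and 5000, 4333 and 16649 in Sham + Sema, and mt-Nd1 measured 31228, 20405 and 63703 in Sham + Sema. Replicate 3 was the highest by far for both genes, and without it the median of the 7 estimates was 0.18. Only mt-Nd3 lay above all 3 shams in every library (564, 579 and 1553 CPM, against 78.5 to 453), which 4.93% of all genes did.

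The interaction of TAC and Sema 8W tests whether the difference with Sema was another in TAC than in sham. Its sham arm is Sham + Sema, whose titles give no duration, so the time on drug may differ between the arms. All 7 estimates were below 0, from -3.25 to -1.02 (median -1.65, all genes -0.17), with adjusted p-values of 0.149 to 0.588. None passed the threshold, against 0.475% of all genes, 5 of 7 had an unadjusted p under 0.05, limma-voom called 0 and DESeq2 called mt-Nd6 alone (log2 -2.0, SE 0.62, adjusted p = 0.0494), beside 2.57% of the genes it gave an adjusted p. The lowest estimates were those of mt-Nd3 (-3.25, SE 0.99) and mt-Nd6 (-2.13, SE 0.65). Without Sham + Sema replicate 3 the median was -1.07, and without TAC 8W replicate 2 it was -1.65. With scaling to the 13 mitochondrial genes it was -0.64, and with the trend in GC content and length removed it was -0.36, with 1 estimate above 0.

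In the second set, 4 weeks of Sema were given to sham and TAC mice after surgery. Sham + Sema 4W had estimates of -0.03 to 0.92 against Sham 4 to 6 (median 0.57, all genes -0.07), of which 6 of 7 were above 0, and 4 of 7 when scaled to the 13 mitochondrial genes or by total counts. No member and no gene passed the threshold in edgeR (0.0%, with 1798 genes at an unadjusted p under 0.05, 1 of them a member, mt-Nd2) or in DESeq2 and limma-voom. mt-Nd2 measured 55839, 55234 and 45390 CPM in Sham 4 to 6 and 52969, 93498 and 140929 in Sham + Sema 4W, and 1 treated library lay among the shams (log2 fold change 0.88, SE 0.39, adjusted p = 0.345). The median of the 7 estimates was 0.92 without Sham 4 and 0.41 without Sham + Sema 4W replicate 3. It was 0.17 with total counts, 0.04 with scaling to the 13 mitochondrial genes and 0.21 with the trend in GC content and length removed. mt-Nd4 measured 70201, 52425 and 43689 CPM against 70524, 95016 and 130051, and was the only member without overlap, the lowest treated library lying just above the highest sham (8.73% of all genes were higher without overlap). mt-Nd5 had means of 40349 CPM ± 8611 and 41799 ± 19863 (SD, n = 3 each), close together against their spread.

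Between TAC 8W + Sema 4W and Sham 4 to 6, estimates ran from -0.87 (mt-Nd4l) to 0.29 (mt-Nd2) with a median of 0.08, 0 of 7 passed the threshold against 2.01% of all genes, 0 had an unadjusted p under 0.05, and no member had groups without overlap (9.12% of all genes were higher and 10.9% lower without overlap). mt-Nd1 measured 86300, 68154 and 56502 CPM in Sham 4 to 6 and 86237, 82387 and 55063 in TAC 8W + Sema 4W, nearly the same range (log2 fold change 0.08, SE 0.39, adjusted p = 0.952). Replicate 3, the library that stood apart, was the lowest of its group for mt-Nd4 (84096, 80827 and 34350 CPM) and mt-Nd6 (29039, 28035 and 12253), while mt-Nd5 was level in all 3 (34826, 34239 and 35143). Without it the median of the 7 was 0.23, and it ran from -0.05 without Sham 6 to 0.26 without Sham 4.

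Against Sham + Sema 4W, TAC 8W + Sema 4W had all 7 estimates below 0, from -1.0 (mt-Nd3) to -0.27 (mt-Nd5), with 1 above 0 when scaled to the 13 mitochondrial genes or by total counts. The median was -0.58 (all genes 0.08), 0 of 7 passed the threshold against 4.86% of all genes, and 0 had an unadjusted p under 0.05. No member had groups without overlap, against 11% of all genes higher and 10% lower. DESeq2 and limma-voom called 0 in both comparisons of this group. The median was -0.33 when replicate 3 of the TAC group was left out and -0.32 when that of the sham group was, so 1 library in either group moved it by over 1.5 times. In the second set 2 of 10 fibroblast and 1 of 10 macrophage markers were lower in TAC 8W + Sema 4W against either sham group, as were, against Sham + Sema 4W, Tie1 (1 of 10 endothelial markers) and Kcnj8 (1 of 8 of smooth muscle and pericytes), and their part in the members' values was not tested.

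**Figure D4:**
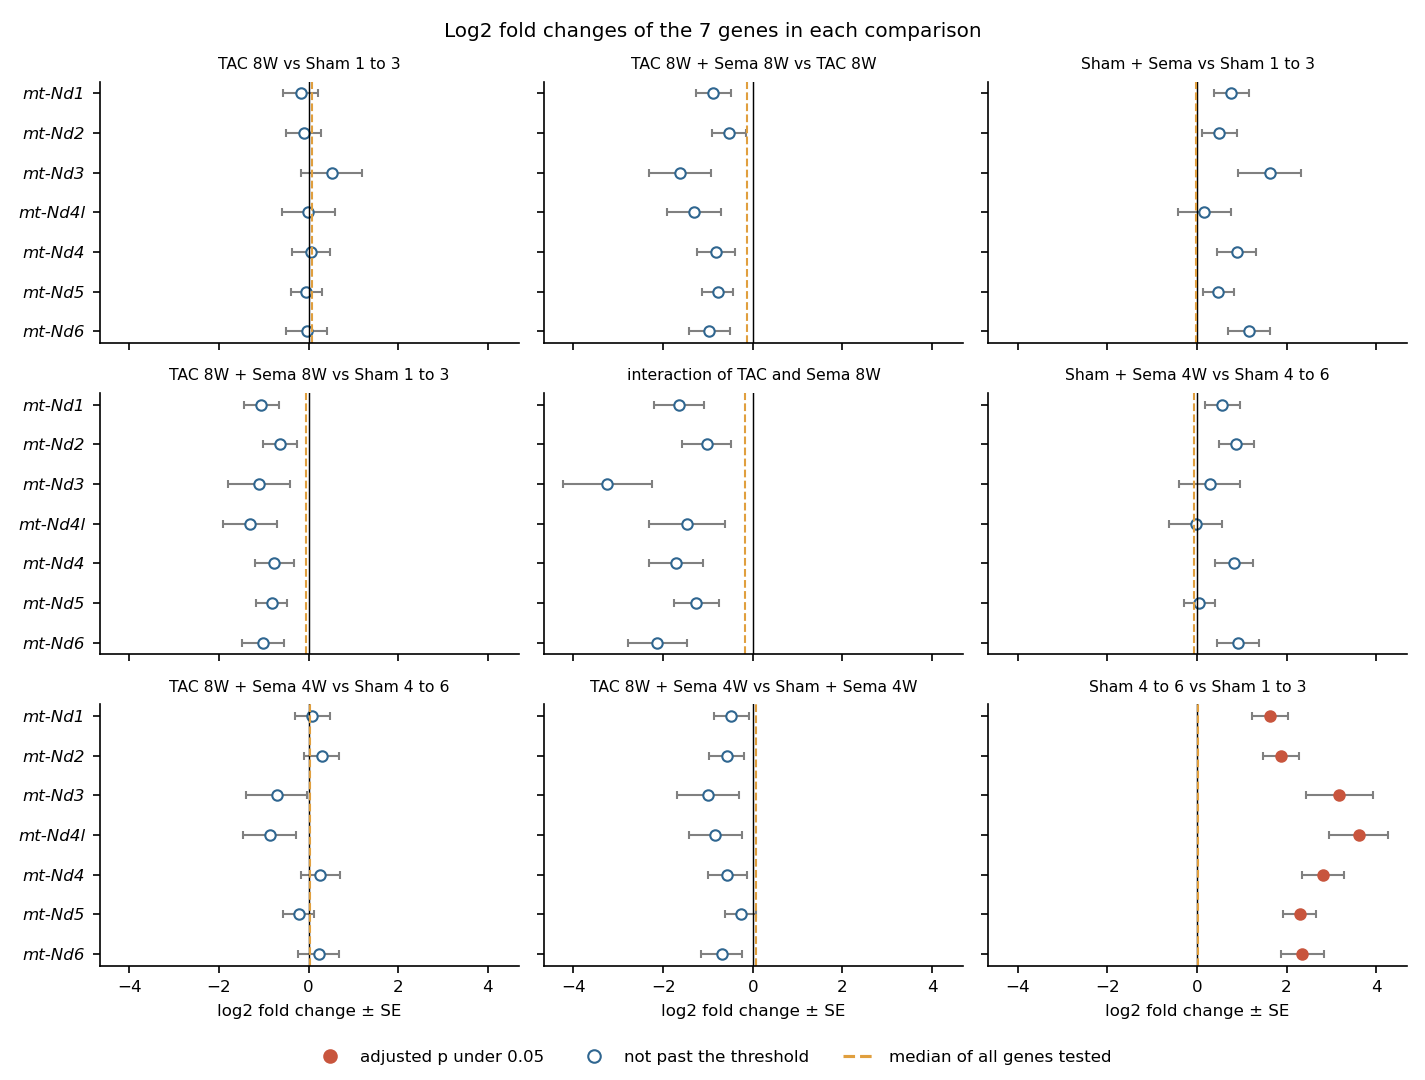
Log2 fold change of each complex I gene with its SE in each comparison; the dashed mark is the median of all genes tested. Only the vehicle shams of the second against those of the first set hold genes past the threshold, all 7 of them at 1.64 to 3.61, and all 7 are below 0 for TAC 8W + Sema 8W against TAC 8W.

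Of the differences between 2 groups, those that passed the threshold with TMM scaling in edgeR lay between the 2 sets of libraries, among mice that had received the same operation and vehicle. All 7 were higher in Sham 4 to 6 than in Sham 1 to 3, by 1.64 to 3.61 on the log2 scale (median 2.35, all genes 0.02). All 7 passed the threshold, against 3.29% of all genes in either direction and 2.80% in this one, and all 7 were called by DESeq2 and limma-voom as well. No member overlapped between the groups, where 18.3% of all genes were higher without overlap.

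mt-Nd4 measured 8809, 7245 and 7606 CPM in Sham 1 to 3 and 70201, 52425 and 43689 in Sham 4 to 6. The sham groups lay far apart, and the log2 fold change was 2.81 (SE 0.46, adjusted p = 0.00260), or 7.03-fold. mt-Nd5 measured 6672, 9483 and 8546 CPM against 34228, 50196 and 36624 (2.29, SE 0.36, adjusted p = 0.00215), or 4.90-fold. mt-Nd2 measured 11301, 15282 and 15888 CPM against 55839, 55234 and 45390 (1.88, SE 0.40, adjusted p = 0.0134), or 3.68-fold. Every antiporter-like subunit was thus higher in each library of the second sham group.

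mt-Nd1 had the smallest difference, at 22174, 16134 and 29467 CPM against 86300, 68154 and 56502 (log2 fold change 1.64, SE 0.40, adjusted p = 0.0290), or 3.11-fold. It was also the least stable call, lost when any of Sham 1, 2, 4, 5 or 6 was left out (adjusted p 0.0502 to 0.187). The small connecting subunits differed more. mt-Nd6 measured 4433, 3534 and 3681 CPM against 22542, 20776 and 15909 (2.35, SE 0.48, adjusted p = 0.0106). mt-Nd3 measured 344, 78.5 and 453 against 4780, 2230 and 927 (3.18, SE 0.74, adjusted p = 0.0230), and mt-Nd4l 109, 66.3 and 76.2 against 211, 1768 and 1087 (3.61, SE 0.65, adjusted p = 0.00559). Of all 7 members, 2 passed the threshold without Sham 2, 4 without Sham 1 or Sham 4, 6 without Sham 5 or Sham 6 and 7 without Sham 3. Calls over all genes fell in these fits as well, from 416 of 12626 with every library to 47 of 12880 without Sham 2. They were 118 of 12892 without Sham 1, 123 of 12842 without Sham 4 and 220 of 12845 without Sham 5. Without Sham 6 they were 175 of 12831, and without Sham 3 they were 260 of 12891.

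The offset held over the treated groups too, as a description. The ratio of the set medians in CPM was 4.03 for mt-Nd1, 4.11 for mt-Nd5, 4.33 for mt-Nd2, 6.25 for mt-Nd6, 7.32 for mt-Nd3, 9.12 for mt-Nd4l and 9.5 for mt-Nd4. Over all 21 libraries the ranges of the sets overlapped for mt-Nd1, mt-Nd3 and mt-Nd6 and not for the other 4. The share of all genes without overlap between the sets was not measured, so this count has no background to be read against. Among the other mitochondrially encoded protein genes, mt-Co2 and mt-Cytb had no overlap either. The ranges of mt-Co1, mt-Co3, mt-Atp6 and mt-Atp8 overlapped. In sum, the 7 genes took 3.44% to 10.2% of all counts in the first set and 18.3% to 27.8% in the second. No list of cell type markers had a gene past the threshold between the sham groups. With the trend in GC content and length removed, all 7 stayed above 0 with a median of 1.29, and 3 (mt-Nd4l, mt-Nd4 and mt-Nd5) passed the threshold. Over all genes, 524 of 12617 passed in this setting, where 416 of 12626 had passed with TMM scaling.

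The estimate was smaller for the most abundant mitochondrial transcript. mt-Co1, the catalytic core of cytochrome c oxidase, took 11.4% to 23.3% of all counts in the first set and 10.7% to 16.5% in the second, and its log2 fold change between the shams was 0.26 (SE 0.40, adjusted p = 0.754). Counts of the 7 complex I genes were 0.209 to 0.593 of those of mt-Co1 in the first set and 1.1 to 2.59 in the second, with no overlap. As a share of the 13 genes, the members took 16.1% to 31.8% in the first set and 41.7% to 50.6% in the second, and mt-Co1 53.5% to 77.1% and 19.5% to 37.7%. With the libraries scaled to the 13 genes the median offset of the members was 1.01, where that of all genes was -1.28, and all 7 passed, in a setting where 56.6% of all genes did. Of the other 6 genes, 4 were higher in Sham 4 to 6, against 2.80% of all genes: mt-Atp6 (log2 fold change 3.87), mt-Co2 (3.43), mt-Atp8 (2.63) and mt-Cytb (1.96).

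**Figure D5:**
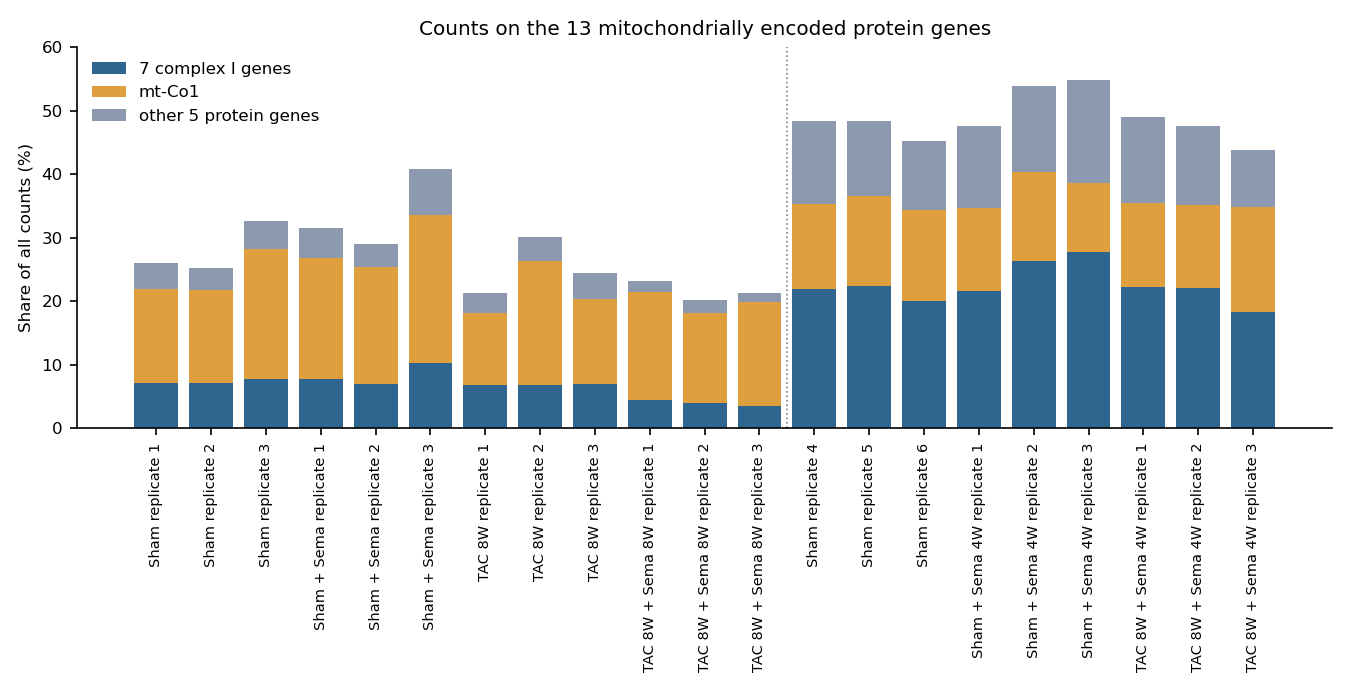
Share of all counts (%) taken in each library by the 7 complex I genes, mt-Co1 and the 5 other mitochondrially encoded protein genes. The complex I share is 3.44% to 10.2% in the 12 libraries of the first set and 18.3% to 27.8% in the 9 of the second, while mt-Co1 overlaps between the sets.

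Of the 6 other mitochondrially encoded protein genes, 2 passed the threshold in edgeR with TMM scaling for TAC 8W + Sema 8W against TAC 8W (5.66% of all genes did). The same 2 passed against Sham 1 to 3 (3.36% of all genes). These were mt-Atp8 and mt-Atp6, subunits of the ATP synthase, and both were lower with Sema 8W. Against TAC 8W their log2 fold changes were -5.27 (SE 0.71, adjusted p = 8.17e-04) and -2.81 (SE 0.62, adjusted p = 0.00971). Against Sham 1 to 3 they were -3.66 (SE 0.67, adjusted p = 0.00574) and -2.78 (SE 0.62, adjusted p = 0.0196). mt-Atp8 had only 19, 94 and 11 counts with Sema 8W. It had 4020, 951 and 284 counts in TAC 8W and 190, 677 and 397 in Sham 1 to 3. At 155, 84.2 and 21.7 CPM, replicate 1 set most of its TAC 8W mean, so the size of its fold change is uncertain. For mt-Co1 the estimates against TAC 8W and Sham 1 to 3 were 0.07 (SE 0.39) and -0.05 (SE 0.39).

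The partners of these proteins that are encoded in the nucleus were read beside them. Of 7 core subunits of the matrix arm, 29 tested accessory subunits (of 30) and 16 tested assembly factors (of 17), none passed the threshold in any of the 9 comparisons. Of all genes, 0.0% to 5.66% did. For TAC 8W + Sema 8W against TAC 8W, the median of the core subunits was 0.41 and that of the accessory subunits 0.36, above 0 where all 7 mitochondrial members were below. The groups overlapped, however: core subunits summed to 2190 to 4653 CPM in TAC 8W and 4142 to 4771 with Sema 8W. Accessory subunits summed to 5377 to 14160 and 10783 to 14321 CPM. For the vehicle shams of the second against the first set the medians were 0.10 and 0.16, against 2.35 for the members. In Sham + Sema against Sham 1 to 3 they were 0.62 and 0.74, beside 0.77 for the members. In Sham + Sema 4W against Sham 4 to 6 the medians were 0.54 and 0.66, beside 0.57 for the members.

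Of 32 genes for transcription and RNA processing in mitochondria, 1 passed the threshold for TAC 8W + Sema 8W against TAC 8W (5.66% of all genes), 2 against Sham 1 to 3 (3.36%), 1 for the TAC against the sham group of Sema 4W (4.86%), 2 between the vehicle shams (3.29%) and 0 in the other 5 comparisons. These counts are near the share over all genes. Pnpt1, the polynucleotide phosphorylase that degrades RNA in mitochondria, fell in TAC 8W + Sema 8W against TAC 8W (log2 fold change -1.01, SE 0.26, adjusted p = 0.0259) and against Sham 1 to 3 (-1.09, adjusted p = 0.0290). Mterf2, of the mitochondrial transcription termination factor family, fell in the second of these (-1.26, adjusted p = 0.0341). Between the sham groups Pnpt1 (1.08, adjusted p = 0.0271) and Mterf3 (1.05, adjusted p = 0.0369) were higher in Sham 4 to 6. Ppargc1a, a coactivator that promotes mitochondrial biogenesis, was higher in TAC 8W + Sema 4W than in Sham + Sema 4W (3.32, adjusted p = 0.0378), a comparison without a called member.

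Across the 21 libraries, each centred on its set, the members moved together to different degrees. These correlations of log2 CPM are descriptions over libraries that share their scaling and depth. mt-Nd4 and mt-Nd6, which lie on opposite strands, had the highest Pearson r (0.968), and mt-Nd1, mt-Nd2, mt-Nd4 and mt-Nd6 had r of 0.853 to 0.968 with each other. mt-Nd3 had r of 0.682 to 0.834 and mt-Nd5 of 0.590 to 0.688 with those 4. mt-Nd4l stood apart, with r from 0.0954 with mt-Nd3 to 0.541 with mt-Nd5, and r was 0.240 with mt-Nd4, its partner on the same mRNA. Counts of mt-Nd4l were 0.288% to 3.37% of those of mt-Nd4, and the ratio of mt-Nd6 to mt-Nd5 counts ran from 0.349 to 1.84.

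Against the mean of the 7 members, the mean of the nuclear complex I subunits had r = 0.624. Of 7666 nuclear genes with a mean of at least 5 CPM, the patterns most like that of the members were those of Mkln1 (r = 0.904), Cox20 (0.895), Rfesd (0.893), Mrpl47 (0.889), Ndufaf7 (0.885) and Trmt13 (0.882). Cox20 is an assembly factor of cytochrome c oxidase, Mrpl47 a protein of the mitochondrial ribosome and Ndufaf7 an assembly factor of complex I. The lowest r were those of Ell (-0.862), Dvl1 (-0.856) and Fibin (-0.833). For the genes from Mkln1 to Trmt13, r was 0.900 to 0.945 within the first set and 0.673 to 0.843 within the second. Whether the most similar genes share a function was not tested. With the GC trend of the libraries, the mean of the members correlated in opposite directions in the sets. The r was -0.580 in the first set (12 libraries) and 0.693 in the second (9 libraries). With the trend of the libraries in transcript length it was -0.238 and -0.704.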

How the data were processed

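Total RNA of left ventricular tissue was sequenced as mRNA libraries in 21 samples. The authors trimmed reads with cutadapt 1.11, aligned them to mm10 with hisat2 and counted them per gene with featureCounts 1.6.0, and the deposited values are raw counts. The annotation and the handling of strand and of reads with several places were not stated by the sources. Each column was matched to its sample by name, where high and M were matched by elimination, and 0 columns lacked a sample. GENCODE M21 gave symbols for 22041 of 22136 identifiers.

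Genes were kept by filterByExpr (minimum count 10, minimum total 15) and tested with edgeR 4.0.16 under R 4.3.3: TMM factors, a quasi-likelihood fit of 7 group means over all 21 libraries (common dispersion 0.120) and Benjamini-Hochberg adjustment over 12626 genes at 0.05. This gave every adjusted p in the text unless another tool is named. A prior count of 2 was used for log2 CPM. DESeq2 1.42.0, limma-voom (limma 3.58.1), 4 other scalings, no filter, a fit on only the libraries of the set, a replicate block, leaving out each library and, chosen after seeing the data, removal of the trend with GC content and length (natural splines, 5 degrees of freedom) were the alternatives. The fit was tested on simulated data. Python 3.11.15, pandas 2.3.3, scipy 1.17.1 and matplotlib 3.10.9 were used for summaries and plots.

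The members and gene lists were chosen with earlier results of these data known. All 7 members are named in every comparison, with, from each list, the genes past the threshold up to the 4 with the smallest p, and the 6 most like and 3 least like nuclear genes.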

Additional observations from a re-analysis of the deposited data

How the results depend on the processing

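In the 8 comparisons inside the sets, 0 of 7 members passed the threshold with TMM scaling, and the count became 1 in a few settings. For TAC 8W + Sema 8W against TAC 8W it was 1 (mt-Nd1) with total counts and 1 (mt-Nd1) with scaling to the 13 mitochondrial genes. Against Sham 1 to 3 it was 1 (mt-Nd1) with each of these and 1 (mt-Nd1) with DESeq2, and for the interaction 1 (mt-Nd6) with DESeq2. Between the sham groups it was 3 with the trend in GC content and length removed (524 of 12617 genes passed). It was 2 to 7 when 1 sham was left out (47 to 260 genes passed). The other scalings, tools, filter and fits kept it at 0 inside the sets and at 7 between them. No member past the threshold changed sign. Of 1029 estimates compared, 62 changed sign without passing the threshold in either setting, 26 of them on leaving out 1 library, 13 with mitochondrial scaling and 11 with the trend removed.

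Across all genes, 715 passed for TAC 8W + Sema 8W against TAC 8W with TMM scaling, 101 with mitochondrial scaling, 214 with the trend removed and 460 with total counts. Between the sham groups 416 passed with TMM, 827 with DESeq2, 1507 in a fit of the shams alone and 7143 with mitochondrial scaling, which moved the median of all genes to -1.28, as total counts moved it to -0.50. The cause was not tested.

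No shared deviation of same-numbered libraries was seen (5 of 21 pairs had r over 0.1, mean r -0.0140 against 0.00234 for other numbers). The deviations were taken from group means of 3 libraries, so these values cannot exclude that the numbers pair them. With a replicate block, which could not be fitted with Sham 4 to 6, 0 members passed and the median for TAC 8W + Sema 8W against TAC 8W was -0.78. Each group had 3 libraries, and the lowest count of a member in any of them was 389.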

Other observations

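Relative to the other mitochondrial transcripts, the members were not offset alike between the sets. Shares were taken of the counts on the 13 mitochondrially encoded protein genes. The ratio of the set medians (second over first) was 1.35 for mt-Nd1, 1.77 for mt-Nd2 and mt-Nd5 and 2.12 for mt-Nd3. It was 2.26 for mt-Nd6, 3.57 for mt-Nd4 and 3.82 for mt-Nd4l. Other mitochondrial genes covered the same span and more, with 5.13 for mt-Atp6, 4.64 for mt-Co2 and 3.56 for mt-Atp8. The ratio was 1.80 for mt-Cytb, 1.47 for mt-Co3 and 0.448 for mt-Co1. The ranges of these shares overlapped between the sets for mt-Nd3, mt-Nd4l and mt-Nd5 and not for the other members. mt-Nd4l and mt-Nd4, which share an mRNA, had the highest ratios among the members.

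The small subunits mt-Nd3 and mt-Nd4l, whose genes are neighbours on the same strand, kept no fixed ratio. Counts of mt-Nd3 were 1.18 to 17.2 times those of mt-Nd4l in the first set and 0.853 to 22.7 times in the second.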
